A study of Mus musculus with 4 samples.

Results

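Regulatory T cells (Treg) depend on the transcription factor Foxp3 and hold other immune cells in check. They exist in a resting and an effector state. The messenger RNA of 10 transcription factors that mark these states was examined in Treg with floxed Pdpk1 and in Treg with intact Pdpk1. The 10 were given by symbol, 7 as effector factors (Prdm1, Irf4, Batf, Maf, Id2, Bhlhe40 and Myb) and 3 as resting factors (Id3, Bach2 and Lef1). Each of the 10 was found on a single row of the 28334 rows of the deposited table, and all 10 were among the 13685 genes tested.

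The KO group was 2 libraries with Pdpk1 FL/FL on Foxp3 YFP-Cre/0, and the WT group was 2 libraries with Pdpk1 +/+ on Foxp3 YFP-Cre/0. All 4 came from untreated C57BL/6 mice, whose age was not given in the sources used here. In both groups the Foxp3 gene drives YFP together with Cre recombinase, so loxP-flanked sequence is removed in cells that express Foxp3, and WT cells carry Cre as well. CD4+ cells with YFP were sorted from spleen and peripheral lymph nodes, and their poly-A RNA was sequenced. PDK1, the product of Pdpk1, is a kinase that activates AKT and related kinases, and the series title puts the question whether Treg need it to keep their function.

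Resting Treg circulate through lymphoid organs and keep factors of naive T cells, among them Bach2, which holds down effector genes, and Lef1, an HMG-box protein of the TCF family. Signals through the T cell receptor induce Irf4 and Batf, which bind DNA together at sites shared by IRF and AP-1 proteins, and effector Treg then come to express Prdm1, whose product Blimp-1 is a zinc-finger repressor. Id2 and Id3 lack a DNA-binding region and hold E proteins off DNA, with Id3 linked to resting and follicular cells and Id2 to effector cells. AKT, a substrate of PDK1, phosphorylates FOXO factors, which keeps them out of the nucleus.

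Values are the deposited log2 normalised counts, and differences are KO minus WT on that scale. A gene is called higher or lower at an adjusted p under 0.05 in limma, with Benjamini-Hochberg adjustment over all 13685 genes. Library totals were not recoverable, so the depth behind each value is unknown. Pdpk1 (chromosome 17) was at 11.78 and 11.73 in the KO libraries and at 11.71 and 11.76 in the WT libraries. The labels do not say which exons are flanked, and a value summed over the gene does not show the deletion, so the groups are named by their labels. Of 10 defining Treg markers, all 10 were measured, 4 (40%) were called higher and 2 (20%) lower in KO, against 27.1% of all tested genes called higher and 20.3% called lower. The markers of other cells summed to low values. Their summed linear values (2 to the power of the deposited value) were 331 and 327 in KO against 410 and 364 in WT for 7 B cell genes, and 273 and 314 in KO against 303 and 258 in WT for 5 plasma cell genes. They were 349 and 370 in KO against 387 and 357 in WT for 6 genes of CD8 T cells and NK cells, and 296 and 307 in KO against 388 and 297 in WT for 7 myeloid genes. Tnfrsf17 of plasma cells, Ncr1 of NK cells and Fcgr1 of myeloid cells did not reach the minimum value for testing. Of 4 tested plasma cell genes 1 was called higher (Derl3, 0.915) and 2 lower (Sdc1, -0.61, and Pou2af1, -0.395). In each of the other 3 sets 0 were called higher and 1 lower, of 7 B cell, 5 CD8 T and NK cell and 6 myeloid genes tested. The lower gene of CD8 T and NK cells, Klrb1c, was at 3.34 and 3.09 in KO and at 4.19 and 4.34 in WT. It met the minimum for testing only through the WT libraries, so its call is given as a description. The 10 Treg markers summed to 43052 and 43439 in KO against 40728 and 40191 in WT.

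The promoters of 4 factors are printed as examples. Prdm1, Irf4 and Myb were called higher in KO, with Prdm1 showing the largest difference of the 10, and Id3 was the single resting factor called lower. Batf and Bhlhe40 were also called higher, each with a larger difference than Myb. The Batf window is not printed, and no sequence was at hand for Bhlhe40. RefSeq promoter sequences (GRCm38.p6, 250 bases before to 50 after the start) were at hand for 8 of the 10 factors. The windows are chr10:44458699-44458998 on the minus strand for Prdm1, chr13:30748983-30749282 on the plus strand for Irf4, chr10:21160935-21161234 on the minus strand for Myb and chr4:136143572-136143871 on the plus strand for Id3. Each is printed 5′ to 3′ on the strand of its gene, and capitals mark a match to any motif searched.
Prdm1: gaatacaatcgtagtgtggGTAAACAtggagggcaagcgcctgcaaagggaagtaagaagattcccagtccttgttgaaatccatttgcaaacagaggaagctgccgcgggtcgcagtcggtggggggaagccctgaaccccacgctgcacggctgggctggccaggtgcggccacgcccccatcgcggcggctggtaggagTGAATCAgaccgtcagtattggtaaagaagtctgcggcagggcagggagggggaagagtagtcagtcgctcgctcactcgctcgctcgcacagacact
Irf4: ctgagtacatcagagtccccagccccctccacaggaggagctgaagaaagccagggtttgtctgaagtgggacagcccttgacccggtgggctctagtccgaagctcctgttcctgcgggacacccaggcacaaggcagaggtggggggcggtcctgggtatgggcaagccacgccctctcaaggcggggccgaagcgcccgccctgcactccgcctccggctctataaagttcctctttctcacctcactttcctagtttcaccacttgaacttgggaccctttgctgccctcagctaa
Myb: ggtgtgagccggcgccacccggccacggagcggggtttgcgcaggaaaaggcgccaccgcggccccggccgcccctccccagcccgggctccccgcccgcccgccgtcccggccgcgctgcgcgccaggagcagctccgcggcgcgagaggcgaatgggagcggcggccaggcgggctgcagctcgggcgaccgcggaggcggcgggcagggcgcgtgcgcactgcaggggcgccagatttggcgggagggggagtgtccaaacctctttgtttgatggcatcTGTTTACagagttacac
Id3: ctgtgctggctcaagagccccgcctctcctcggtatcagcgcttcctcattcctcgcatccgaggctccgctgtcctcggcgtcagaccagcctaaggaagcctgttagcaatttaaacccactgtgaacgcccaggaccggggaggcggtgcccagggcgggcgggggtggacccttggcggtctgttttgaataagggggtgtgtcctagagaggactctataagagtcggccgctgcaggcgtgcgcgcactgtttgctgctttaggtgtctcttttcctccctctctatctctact

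Searches on both strands used 5 motifs. They were GTAAACA (the forkhead core bound by FOXO factors), TGANTCA (the AP-1 site, bound by Batf with Jun proteins), TGCTGA (a part of the Maf recognition element, which can overlap the AP-1 site), CACGTG (the E-box bound by Bhlhe40) and ATCAAAG (a TCF/LEF site). The Prdm1 window held GTAAACA beginning 231 bases before the start, and TGAATCA, a match to TGANTCA, beginning 48 bases before it. The Myb window held GTAAACA on the opposite strand, beginning at base 34 after the start. Among 32851 promoter windows of the same length, 3.65% held GTAAACA and 7.81% held TGANTCA. The shares for the other 3 motifs were 19.5% for TGCTGA, 7.15% for CACGTG and 3.73% for ATCAAAG. The Irf4, Batf, Id2, Id3 and Bach2 windows held none of the 5. Of 4 annotated Lef1 starts, the third held TGCTGA and the fourth held TGCTGA and CACGTG. The sequence just after each of these 4 starts was not found in a GENCODE M21 transcript of Lef1, whereas that of the other factors was found. A match describes these letters and says nothing of binding.

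Of the 7 effector factors, 5 were called higher in KO and 0 lower, against 27.1% of all tested genes called higher. Prdm1 differed most, followed by Irf4, Bhlhe40, Batf and Myb, while Maf and Id2 were not called. Of the 3 resting factors, Id3 was called lower, Bach2 missed the threshold narrowly and Lef1 was not called, against 20.3% of all tested genes called lower. Calls over all tested genes numbered 3703 higher and 2778 lower, but median centring gave 2983 higher and 3250 lower, and quantile normalization 3029 higher and 3067 lower. The median log2 difference was 0.305 over the 7 effector factors and -0.295 over the 3 resting factors, and it was 0.015 over all tested genes. In bulk RNA, a different share of cells in a state and a different amount of RNA per cell cannot be told apart. Nothing in the labels says that the libraries came from separate animals, so the p-values measure only the spread between these libraries. If the replicate number was regressed out before deposit, which the sources used here do not say, that spread and the SEs are too small.

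Prdm1 (chromosome 10, 44437177 to 44528501, minus strand) was at 10.53 and 10.55 in the KO libraries and at 9.66 and 9.59 in the WT libraries. Both KO values lay 0.87 or more above both WT values. The difference was 0.915 (SE 0.030), a level 1.89-fold higher in KO, with a 95% interval of 0.826 to 1.004 on the log2 scale (limma adjusted p = 0.00434). Only 201 of the 13685 tested genes, 1.47%, had a higher log2 difference than Prdm1.

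Irf4 (chromosome 13, 30749226 to 30766976, plus strand), needed in mice for Treg to reach the effector state, was at 12.28 and 12.31 in KO and at 11.81 in each WT library. Its groups stood 0.47 apart at their nearest values. The difference was 0.485 (SE 0.016), a 1.40-fold higher level (limma adjusted p = 0.00434). Batf (chromosome 12, 85686669 to 85709087, plus strand), the bZIP factor that pairs with Jun proteins and binds beside Irf4, was at 9.91 and 9.94 in KO and at 9.63 and 9.61 in WT. Its groups did not overlap, and its difference was smaller than that of Irf4, at 0.305 (SE 0.020), which is 1.24-fold higher (limma adjusted p = 0.00591).

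Bhlhe40 (chromosome 6, 108660629 to 108666925, plus strand), a basic helix-loop-helix repressor induced by T cell activation, was at 11.42 and 11.41 in KO and at 11.09 and 11.04 in WT. The KO libraries were both higher, by 0.350 on average (SE 0.022), or 1.27-fold (limma adjusted p = 0.00586). Myb (chromosome 10, 21124935 to 21160984, minus strand), a factor of progenitor cells that effector Treg in mice also need, was at 10.56 and 10.46 in KO and at 10.17 and 10.28 in WT. The groups did not overlap, but the libraries of a group spread more than for the 4 factors above. The difference was 0.285 (SE 0.057), or 1.22-fold, with a 95% interval of 0.12 to 0.45 (limma adjusted p = 0.0275). Without a filter on low values Myb was not called (limma adjusted p = 0.0720).

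Maf (chromosome 8, 115682942 to 115707794, minus strand), a bZIP factor that drives Il10 in T cells, was at 11.70 and 11.59 in KO and at 11.59 and 11.65 in WT. The groups overlapped. The difference was 0.025 (95% interval -0.12 to 0.17, limma adjusted p = 0.705), and it was -0.02 after quantile normalization and -0.005 after median centring. Id2 (chromosome 12, 25093799 to 25097140, minus strand) was at 9.94 and 9.98 in KO and at 9.92 and 9.80 in WT. The KO values were above the WT values by as little as 0.02, and the difference of 0.100 was not called (95% interval -0.04 to 0.24, limma adjusted p = 0.182). It ranged from 0.04 (without WT 2) to 0.16 (without WT 1) with 1 library left out and was 0.059 after quantile normalization.

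Id3 (chromosome 4, 136143497 to 136145755, plus strand) was at 8.55 and 8.62 in KO and at 8.89 and 8.87 in WT. Both KO libraries were lower, with 0.25 between the nearest values. The difference was -0.295 (SE 0.034), so the level was 1.23-fold lower in KO (limma adjusted p = 0.0100). Bach2 (chromosome 4, 32238804 to 32586108, plus strand), a bZIP repressor that competes with AP-1 factors for their sites, was at 10.85 and 11.09 in KO and at 11.44 and 11.29 in WT. Its groups did not overlap, yet it had the widest spread within groups of the 10 factors. The difference was -0.395 (SE 0.107, 95% interval -0.71 to -0.08), and the limma adjusted p was 0.0529. Bach2 was called lower after quantile normalization (limma adjusted p = 0.0291) and after median centring (limma adjusted p = 0.0463). Lef1 (chromosome 3, 131110471 to 131224356, plus strand) was at 10.96 and 11.06 in KO and at 10.99 and 10.92 in WT, with overlapping groups and a difference of 0.055 (95% interval -0.08 to 0.19, limma adjusted p = 0.400). The Lef1 difference ranged from 0.005 (without KO 2) to 0.105 (without KO 1) with 1 library left out and was 0.016 after quantile normalization.

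**Figure D1:**
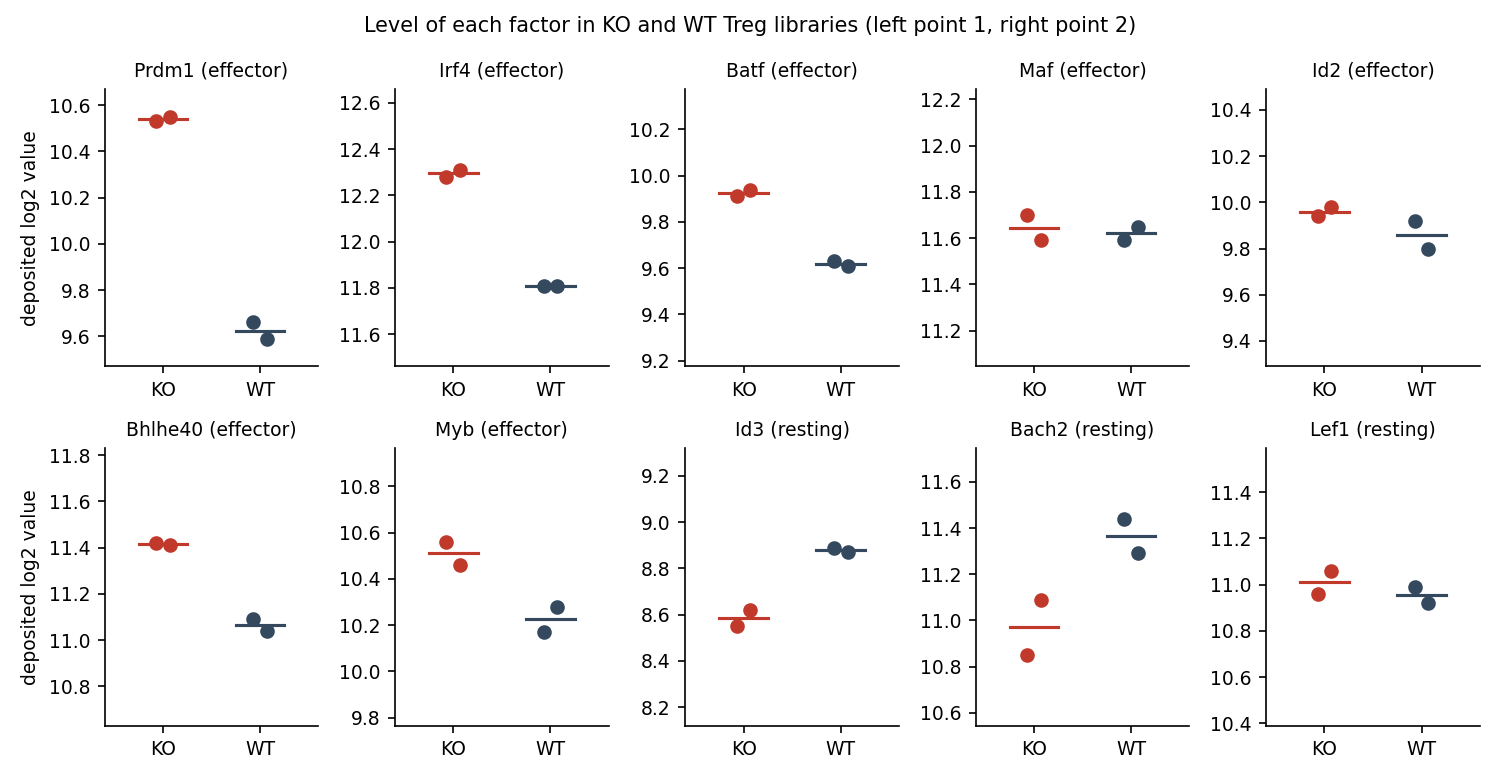
Deposited log2 value (vertical axis, 1.2 units tall in every panel) of each factor in the 2 KO libraries and the 2 WT libraries, with points for libraries and lines for group means. Prdm1 shows the widest gap between its groups, and Maf and Lef1 overlap.

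**Figure D2:**
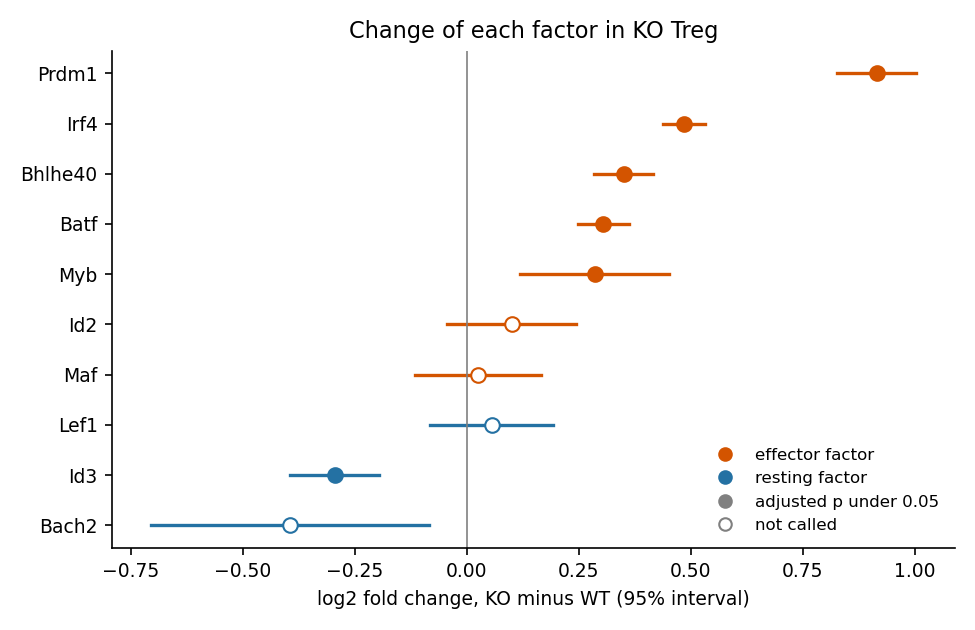
Log2 fold change of each factor, KO minus WT, with its 95% interval from limma (horizontal axis) and filled points for an adjusted p under 0.05. The 5 filled effector factors lie between 0.285 (Myb) and 0.915 (Prdm1), and Id3 is filled at -0.295.

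Among all 10 factors, KO and WT values did not overlap for 8, which was also common over all tested genes (39.9% with KO above WT and 33.1% with KO below WT). Of the 7 effector factors 6 had both KO libraries above both WT libraries, against 39.9% of all tested genes. Of the 3 resting factors 2 had both KO libraries below both WT libraries, against 33.1% of all tested genes. When any 1 library was left out, 1 residual degree of freedom remained and limma called 0 of the 13685 genes (5225 to 5669 at unadjusted p under 0.05). The limma adjusted p of Prdm1, Irf4, Batf and Bhlhe40 then ranged from 0.0817 to 0.0961 in each case, that of Id3 from 0.0817 to 0.106 and that of Myb from 0.107 to 0.162. No factor or gene was called with the replicate number as a further term either.

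**Figure D3:**
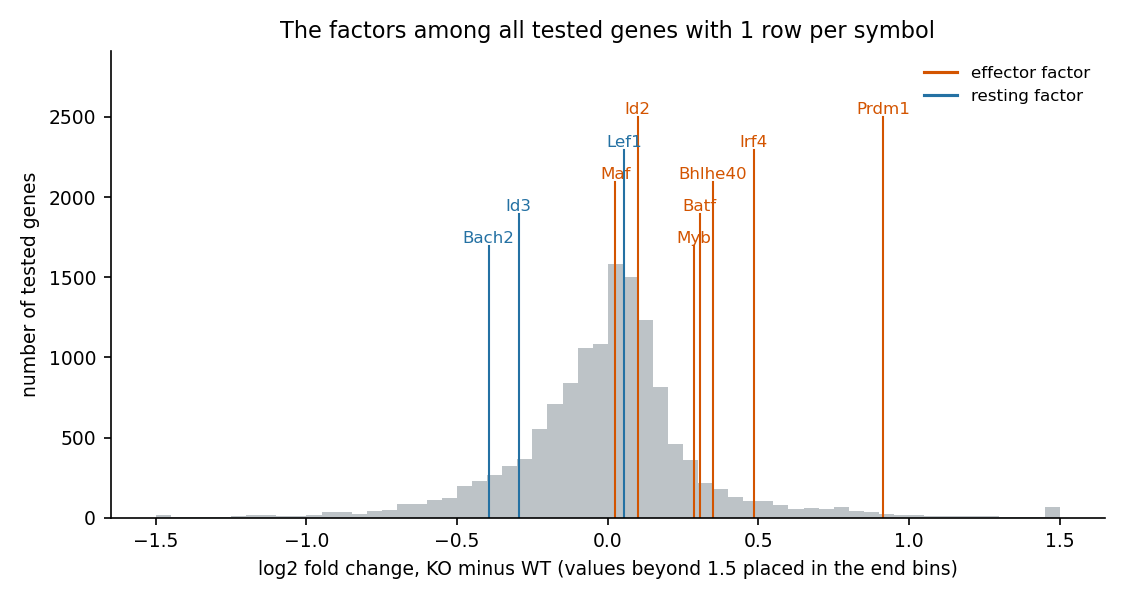
Number of tested genes (vertical axis) by log2 fold change, KO minus WT (horizontal axis), with lines at the 10 factors. Prdm1 and Irf4 lie in the right tail, where 1.47% and 5.36% of tested genes had a higher value, and Bach2 lies where 8.43% had a lower value.

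Setting an effector factor against a resting factor of the same library gave a difference that a constant shift of a whole library does not change. Prdm1 minus Bach2 was -0.32 and -0.54 in the KO libraries and -1.78 and -1.70 in the WT libraries, a shift of 1.31. Id2 minus Id3 was 1.39 and 1.36 in KO and 1.03 and 0.93 in WT, a shift of 0.395 of which the larger part came from Id3. Irf4 minus Lef1 was 1.32 and 1.25 in KO and 0.82 and 0.89 in WT, a shift of 0.430. For all 3 pairs both KO values were above both WT values. Only these 3 of the possible pairs were computed. Each shift follows from the differences of its 2 factors given above, so it is no further evidence. These shifts are descriptions, since 2 libraries against 2 allow no small exact p.

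Per 1000 exonic bases, Irf4 was the most abundant of the 10 in both groups, with a mean linear value of 1025 in KO and 732 in WT, followed by Batf at 691 in KO and 560 in WT and Bhlhe40 at 580 in KO and 455 in WT. Id2 (409 in KO and 382 in WT) and Maf (389 in KO and 382 in WT) came next and overlapped each other in both groups. Prdm1 held a mean of 267 in KO, above Lef1 at 235, Id3 at 214 and Bach2 at 202, of which Id3 and Bach2 overlapped. In WT Prdm1 was at 142, below Bach2 at 266, Id3 at 263 and Lef1 at 226, and its libraries overlapped those of Myb, as those of Bach2 overlapped those of Id3. Myb was lowest in both groups, at 163 in KO and 134 in WT. Exonic length here was merged over all transcripts of a gene (8933 bases for Myb, 8788 for Lef1 and 5579 for Prdm1). The length of the transcripts made in these cells was not measured, so the order between genes depends on this choice of length. By group mean Prdm1 was the sixth of the 10 in KO and the ninth in WT, and Bach2 was the ninth in KO and the sixth in WT, but its place beside Id3 was not separated in either group.

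**Figure D4:**
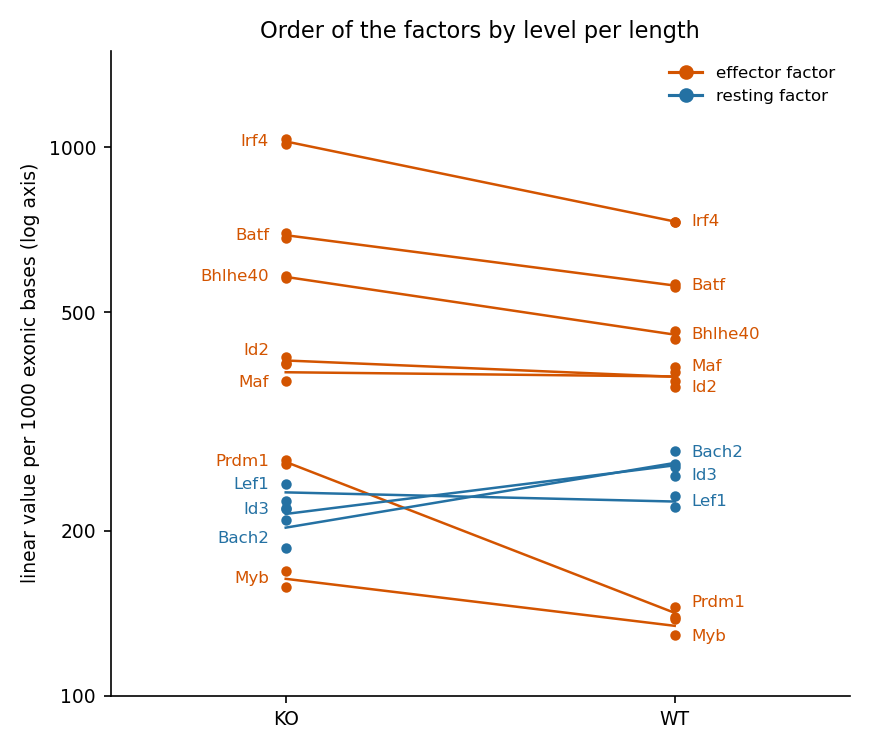
Linear value per 1000 exonic bases (log axis) of the 10 factors, with points for the 2 libraries of KO and of WT and lines joining group means. The line of Prdm1 (267 in KO, 142 in WT) crosses those of Lef1, Id3 and Bach2. The order between genes depends on the exonic lengths, which were merged over transcripts.

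Exons of 5 of the 10 factors overlap those of another annotated gene on the opposite strand, and the use of strand in counting was not given. The shared exonic bases are 440 of Maf with Gm15655, 118 of Bhlhe40 with 0610040F04Rik, 559 of Myb with Gm26577, 537 of Bach2 with Bach2os and 1208 of Lef1 with Gm43352. Reads from these stretches cannot be told apart without strand. Prdm1, Irf4, Batf, Id2 and Id3 share no exonic base with another gene in GENCODE M21.

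Both relatives of Myb were called higher, against 27.1% of all tested genes. Mybl2, which acts in the cell cycle, was 1.73-fold higher (0.79, SE 0.11, limma adjusted p = 0.0132) and Mybl1 1.51-fold higher (0.59, SE 0.06, limma adjusted p = 0.00833). Bhlhe41, the relative of Bhlhe40, was at 4.08 and 4.15 in KO and at 3.32 and 3.15 in WT. It reached the minimum value for testing through the KO libraries alone, so its difference of 0.88, which was 0.49 with a pseudocount of 10, is given as a description. Genes of cycling cells moved in the same direction, with 10 of 10 markers called higher and a median difference of 0.675. Their summed linear values were 23574 and 22192 in KO and 15346 and 16219 in WT. The part of cycling cells in the levels of Myb and its relatives was not tested.

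Of the other IRF genes 8 were measured, 3 (37.5%) were called higher and 1 (12.5%) lower, against 27.1% and 20.3% of all tested genes. Their median was 0.01 and turned to -0.035 after quantile normalization. Irf2, which can repress interferon targets, was highest among them at 0.205 (SE 0.020, limma adjusted p = 0.00786), below the 0.485 of Irf4. Irf1 and Irf5 differed by 0.130 and 0.135, and Irf3, a mediator of interferon induction, by -0.125. Irf8, the nearest relative of Irf4, was at 9.66 and 9.67 in KO and at 9.75 and 9.69 in WT and was not called (-0.055, limma adjusted p = 0.183). Among 12 measured bZIP relatives and partners of Batf, Maf and Bach2, 3 were called higher, a share of 25% near the 27.1% of all tested genes, and 0 lower. These were the small Maf protein gene Maff (8.29 and 8.44 in KO and 7.62 and 7.49 in WT, a difference of 0.81), the AP-1 gene Fosl2 (10.91 and 11.02 in KO and 10.51 and 10.35 in WT, a difference of 0.535) and Jund (0.130). After quantile normalization or median centring 3 were called higher and 2 lower. Junb, a partner of Batf, differed by 0.09 (limma adjusted p = 0.0525), and Bach1, the relative of Bach2, by -0.06 (limma adjusted p = 0.0516). Bach1 was called lower after quantile normalization (limma adjusted p = 0.0175) and after median centring (limma adjusted p = 0.0227). Batf2 and Batf3 did not reach the minimum value.

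The E proteins, which Id2 and Id3 hold off DNA, differed little. Tcf3 was at 11.08 and 11.10 in KO and at 10.97 and 10.98 in WT, a called difference of 0.115 (SE 0.015, limma adjusted p = 0.0116). Tcf12 differed by 0.02 (limma adjusted p = 0.555), which turned to -0.02 after quantile normalization, and Tcf4 by 0.15 (limma adjusted p = 0.0727). Id1 was called lower at a low level (4.02 in KO and 4.29 in WT on average, difference -0.27, limma adjusted p = 0.0264), although not after quantile normalization (limma adjusted p = 0.0684). Among 11 genes of TCF/LEF proteins and their cofactors, 2 (18.2%) were called higher and 3 (27.3%) lower, near the 27.1% and 20.3% of all tested genes. Tcf7, the relative of Lef1 that encodes TCF-1, was at 11.86 and 11.98 in KO and at 11.94 and 11.82 in WT and was not called (limma adjusted p = 0.650). Tcf7l1, another TCF gene, was at 6.80 and 6.84 in KO and at 6.12 and 6.25 in WT, 1.55-fold higher (0.635, limma adjusted p = 0.00858). Ctnnb1, the gene of β-catenin, differed by 0.135, and Bcl9l, a β-catenin cofactor, by -0.32 (10.75 and 10.81 in KO and 11.11 and 11.09 in WT).

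Among 9 genes listed as repressed by Blimp-1 in lymphocytes 8 were measured, of which 3 (37.5%) were called lower and 1 (12.5%) higher in KO, against 20.3% and 27.1% of all tested genes. The median was -0.38, and it was -0.075 without WT 1 and -0.69 without WT 2. Bcl6, the repressor that opposes Blimp-1, was at 8.19 and 8.25 in KO and at 9.25 and 9.26 in WT, 2.05-fold lower (-1.035, SE 0.031, limma adjusted p = 0.00434). Cxcr5, the receptor for entry into B cell follicles, was at 7.71 and 7.62 in KO and at 8.84 and 8.91 in WT, 2.31-fold lower (-1.21, SE 0.05, limma adjusted p = 0.00495). Ifng was 1.83-fold lower at a low level (limma adjusted p = 0.0317), but was not called without a filter on low values (limma adjusted p = 0.0803). Myc went the other way, at 11.35 and 11.38 in KO and at 11.08 and 11.07 in WT, 1.22-fold higher (0.290, limma adjusted p = 0.00573). Pax5 (-0.405), Spib (-0.36) and Ciita (-0.245), genes of B cells and antigen presentation, were low and not called, and Il2 did not reach the minimum value. Tcf7, also on this list, was not lower (0.04, limma adjusted p = 0.650). The B cell markers Cd79a (1 of 7 called lower) and Pax5 stand beside these, and the part of B cell RNA in the values of Pax5, Spib and Ciita was not tested.

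The wider effector programme moved both ways. Of 28 receptors, cytokines and enzymes, 15 were called higher and 6 lower in KO, with a median of 0.17, against 27.1% and 20.3% of all tested genes. Il10, a cytokine gene that depends on Blimp-1 and Irf4 in Treg, was at 9.08 and 8.93 in KO and at 7.87 and 7.94 in WT, 2.14-fold higher (1.10, SE 0.07, limma adjusted p = 0.00580). Lag3, an inhibitory receptor, was at 10.41 and 10.48 in KO and at 9.19 and 9.16 in WT, 2.41-fold higher. Icos, a costimulator, and Ccr4, a receptor for homing to skin, were 1.32-fold and 1.37-fold higher. Klrg1, a surface marker of terminal effector cells, went the other way at 8.20 and 8.21 in KO and 8.69 and 8.67 in WT, 1.39-fold lower (-0.475, limma adjusted p = 0.00545), and Pdcd1, which encodes PD-1, was 1.42-fold lower (-0.505, limma adjusted p = 0.00434). After quantile normalization the counts were 14 higher and 7 lower.

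Among 14 resting genes other than transcription factors, 4 (28.6%) were called higher and 2 (14.3%) lower, shares near or under the 27.1% and 20.3% of all tested genes. Their median was 0.025 and turned to -0.01 after quantile normalization. Il7r, the IL-7 receptor, was at 11.64 and 11.62 in KO and at 11.11 and 11.09 in WT, 1.44-fold higher (0.530, limma adjusted p = 0.00434). Ramp1, a receptor chain for the peptide CGRP, was 1.99-fold lower (-0.995) and Ly6c1 1.46-fold lower (-0.550).

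Other transcription factors of the 2 states showed no common direction. Of 10 linked to effector Treg, 4 (40%) were called higher and 4 (40%) lower, against 27.1% and 20.3% of all tested genes. The lists overlap, and Bcl6, 1 of these lower genes, is also counted above among the genes repressed by Blimp-1. Tcf7 is counted among the TCF/LEF genes, the genes repressed by Blimp-1 and the factors linked to resting T cells. Pparg, a factor of Treg in fat tissue, was 2.32-fold higher (7.85 and 7.99 in KO and 6.73 and 6.68 in WT), and Nfil3 was 1.68-fold higher (10.54 and 10.55 in KO and 9.81 and 9.78 in WT). Ahr, a receptor for environmental ligands, was 1.55-fold lower. Of 9 linked to resting T cells, 2 (22.2%) were called higher and 2 (22.2%) lower, near the shares over all tested genes. Without a filter on low values 1 was called higher and 0 lower, and the same counts came from limma without a variance trend. Foxo1, Foxp1 and Bcl11b were called lower after quantile normalization (limma adjusted p = 0.0141, 0.0191 and 0.0151) and after median centring (0.0283, 0.0351 and 0.0441). Called higher were Klf2 after either scaling (limma adjusted p = 0.0191 and 0.0453) and Ets1 after quantile normalization (0.00791). Foxo1, the forkhead factor that AKT phosphorylates, was at 11.75 and 11.87 in KO and at 12.13 and 12.03 in WT, 1.21-fold lower (-0.27, SE 0.06, limma adjusted p = 0.0342). Foxp1, another forkhead factor, differed by -0.29 (limma adjusted p = 0.0421). Neither was called without the filter (limma adjusted p = 0.0870 for Foxo1 and 0.105 for Foxp1) or without the trend (0.0507 and 0.0602). Klf2, a FOXO target, differed by 0.13 (limma adjusted p = 0.0249, and 0.0580 without the filter). Satb1 differed by 0.055 (limma adjusted p = 0.0370, and 0.103 without the trend), which turned to -0.01 after quantile normalization.

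**Figure D5:**
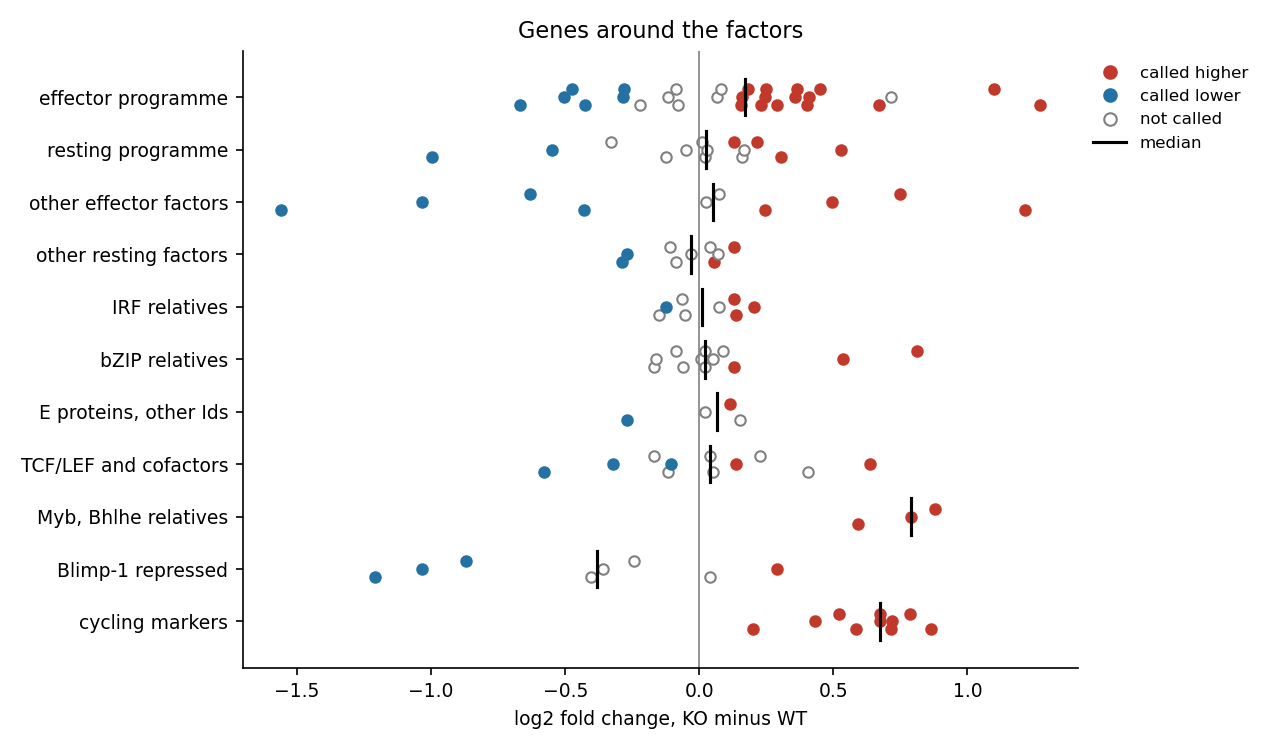
Log2 fold change, KO minus WT (horizontal axis), of the measured genes of 11 lists (rows), with red for called higher, blue for called lower, open for not called and a black bar for the list median. The 10 cycling markers all lie above 0, and the effector programme reaches from -0.67 to 1.27.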

How the data were processed

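Poly-A RNA of sorted Treg was sequenced in 4 libraries, 2 KO and 2 WT. The values used are log2 normalised counts made by the authors, per the file headers and name, with 2 decimals. STAR and DESeq2 are named as tools and mm10 as the build, per the submitters' processing notes. Not given in the sources used here were the counting tool, its annotation and use of strand, and how the log2 values were transformed.

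A gene entered the tests with a linear value of 10 or more in 2 or more libraries. Rows with a date number for a symbol (23) and symbols found on several rows (19) were tested but not named. The contrast KO minus WT was fitted in limma 3.58.1 (R 4.3.3, Python 3.11.15) with genotype as the only term, a variance trend, 2 residual degrees of freedom and two-sided tests. The fit was tested on simulated data. Positions and exonic lengths (merged over transcripts) are those of GENCODE M21 on GRCm38, which is mm10, and promoters are from RefSeq.

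The members and lists were chosen with earlier results of these data known, so counts over them are not independent evidence. Named genes were the 10 factors, Pdpk1, from each list up to 4 called genes by smallest p and up to 2 of the other direction (up to 2 where none was called), and direct relatives of a factor; 2 genes of these lists are counted but not reported by name here. B cell genes without a call were also named, as were Cd8b1 for its level and Bcl11b and Ets1 for their calls under other scalings. All of these were chosen after their values were seen. Alternatives were a replicate term, no filter, a stricter minimum (100), a pseudocount (10), median centring, quantile normalization, a prior without trend or robust, and leaving out each library.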

Additional observations from a re-analysis of the deposited data

How the results depend on the processing

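The count of 6481 called genes stayed within 1.5 times under the alternatives for filter, pseudocount, scaling and variance prior. It was 0 with any 1 library left out (0 to 0) and 0 with the replicate number as a block (4881 genes at unadjusted p under 0.05, smallest limma adjusted p 0.0964). Same-numbered libraries did not deviate together. KO 1 minus KO 2 correlated with WT 1 minus WT 2 at r = -0.907 over 13685 genes, which are not independent. The labels pair nothing beyond a shared number, so the main fit did not take the numbers as pairs. With the numbers crossed, chosen after seeing the data, 9728 of the 13685 genes were called, 5282 higher and 4446 lower. In that fit 5 effector factors were called higher and 2 resting factors lower. Whether the replicate number was regressed out before deposit is not given in the sources used here. If it was, a negative r would follow, and the SEs without that term are too small. The value of r therefore cannot decide whether the numbers are pairs.

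The count of effector factors called higher was 5, with 4 without a filter, 0 with the replicate block (5 at unadjusted p under 0.05) and 0 to 0 with a library left out (4 to 5 at unadjusted p under 0.05). The count of resting factors called lower was 1, with 2 after quantile normalization and 2 after median centring, 0 with the replicate block (1 at unadjusted p under 0.05) and 0 to 0 with a library left out (1 to 2). With the block the limma unadjusted p was 0.000597 for Prdm1, 0.000769 for Irf4, 0.00197 for Bhlhe40, 0.00456 for Batf, 0.0139 for Id3 and 0.0420 for Myb. The difference of Maf changed sign, at -0.024 after quantile normalization, -0.005 after median centring and -0.03 to 0.08 with a library left out. Over all 13 alternatives Prdm1 stayed between 0.87 and 0.95, Id3 between -0.33 and -0.26 and Bach2 between -0.515 and -0.275. With a library left out, the shift was 1.2 to 1.42 for Prdm1 minus Bach2, 0.345 to 0.445 for Id2 minus Id3 and 0.395 to 0.465 for Irf4 minus Lef1. Depth is unknown, so no counting error can be given.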
